A study of Mus musculus with 16 samples.

Results

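Collagen genes were taken as every gene whose symbol reads Col, a number, a and a number, such as Col4a1. There were 44 of them among the 50600 genes counted, of which 32722 could be given a symbol. They were followed by RNA-seq, with reads split by allele, in mouse cells of an F1 hybrid, whose mother was 129/Sv and whose father was Cast/EiJ. Female or male embryonic stem cells, which had been kept on feeder fibroblasts, were differentiated into neural progenitor cells (NPCs), and NPC clones were picked after limiting dilution, so that every clone was a separate line grown from a single cell. The NPCs were expanded in medium with EGF and FGF2 at 10 ng/mL each, and astrocytes were made from NPC clones in 48 h with BMP4 at 10 ng/mL and FGF2 at 1 ng/mL. The labels name no deletion or transgene, and all 12 clones shared the hybrid genome. The groups were 5 astrocyte clones (129, C2 and G4, female, and mC3 and mE6, male) and 3 NPC clones (F5, female, and mG2 and mG6, male), all from poly(A)-enriched RNA with 1 library per clone, and 4 male NPC clones named Ch3, Ch5, Ch7 and Ch8, each represented by 2 libraries made after depletion of ribosomal RNA. The clone named 129 is not to be confused with the 129 allele, which all clones carried. Astrocyte and NPC clones were different lines, and NPC libraries of the 5 astrocyte clones were not analysed here.

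Collagens are secreted or membrane proteins in which 3 chains wind into a triple helix, and most types are named for the chains that can join. Fibrillar collagens form the cables of connective tissue, type IV collagen the sheet of basement membranes, type VI beaded filaments, and the FACIT group sits on the surface of fibrils. In the brain, collagen is largely found at the meninges and in the basement membranes of blood vessels, where astrocyte end-feet attach. Neural progenitors contact a similar basement membrane at the pial surface.

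Several collagen genes are arranged in pairs, which matters for allelic expression because a pair can share the sequence from which both genes are read. Col4a1 and Col4a2, the chains of the type IV collagen found in nearly every basement membrane, lie head to head on chromosome 8 with RefSeq starts 21 bp apart (11312826 on the minus strand and 11312805 on the plus strand, GRCm38.p6). Their windows from 250 bases before to 50 bases after each start are shown, since all 12 clones gave more reads from the 129 allele of both genes (values follow). The RefSeq gene body of Col4a1 reaches 11312889, beyond the start used, so the 21 bp and the shared bases depend on that start. Capitals mark the 78 bases that the windows have in common, chr8:11312777-11312854.
Col4a1 (chr8:11312777-11313076, minus strand): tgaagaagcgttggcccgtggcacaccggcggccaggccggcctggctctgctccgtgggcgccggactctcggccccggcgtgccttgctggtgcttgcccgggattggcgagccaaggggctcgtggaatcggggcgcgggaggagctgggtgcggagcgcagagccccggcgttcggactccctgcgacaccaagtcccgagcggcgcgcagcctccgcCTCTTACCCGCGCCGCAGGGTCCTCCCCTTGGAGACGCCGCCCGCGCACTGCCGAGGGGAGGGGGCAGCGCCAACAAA
Col4a2 (chr8:11312555-11312854, plus strand): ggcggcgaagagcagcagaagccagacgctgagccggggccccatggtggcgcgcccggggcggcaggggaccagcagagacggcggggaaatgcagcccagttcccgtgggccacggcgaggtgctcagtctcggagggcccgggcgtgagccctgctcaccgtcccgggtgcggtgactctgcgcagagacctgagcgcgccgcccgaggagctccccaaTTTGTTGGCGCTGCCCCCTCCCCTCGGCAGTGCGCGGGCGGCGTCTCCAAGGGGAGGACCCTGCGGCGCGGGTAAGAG
The shared stretch held 9 CpG and a single GGGCGG (searched on both strands), at base 10 of Col4a1 and base 8 of Col4a2 counted from their starts. CCAAT, searched likewise, was found once in each window, at position -145 of Col4a1, outside the shared stretch, and at -32 of Col4a2, where only its last base is shared. The Col4a2 window held GGGCGG again at -192 and -48. The sequence is the RefSeq reference, not that of the 129 or Cast strain. Of all 27025 genes with a window in the table used, 35.9% held GGGCGG and 37.9% CCAAT, and of the 35 collagen genes with a window, 62.9% and 34.3% did. The median window of the 35 held 12 CpG, against 7 over all genes. A match is a description of these letters and not of binding.

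Col8a2, a chain of the network-forming type VIII collagen, and Col16a1, a FACIT collagen, lie on chromosome 4 less than 20 Mb from each other and gave nearly all their reads from opposite alleles in the same astrocyte clone (G4, values follow). Their windows are shown with each CpG in capitals. Col8a2 held 32 CpG and Col16a1 24.
Col8a2 (chr4:126286544-126286843, plus strand): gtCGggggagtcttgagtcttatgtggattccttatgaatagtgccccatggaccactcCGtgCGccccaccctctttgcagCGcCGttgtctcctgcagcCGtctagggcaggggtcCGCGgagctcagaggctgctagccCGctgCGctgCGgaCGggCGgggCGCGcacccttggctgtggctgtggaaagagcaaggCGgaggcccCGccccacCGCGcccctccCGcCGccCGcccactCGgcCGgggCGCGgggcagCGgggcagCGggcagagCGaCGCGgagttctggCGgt
Col16a1 (chr4:130047590-130047889, plus strand): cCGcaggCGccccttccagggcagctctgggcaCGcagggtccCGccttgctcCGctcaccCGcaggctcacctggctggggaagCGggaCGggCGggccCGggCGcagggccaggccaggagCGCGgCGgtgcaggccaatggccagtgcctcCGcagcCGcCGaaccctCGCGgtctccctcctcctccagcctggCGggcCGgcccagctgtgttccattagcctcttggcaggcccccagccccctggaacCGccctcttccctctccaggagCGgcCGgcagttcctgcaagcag

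Each gene was measured as all reads and as reads that cover a SNP and could be given to an allele. Poly(A) libraries held 69925081 to 105892734 reads on genes and rRNA-depleted libraries 20871111 to 30920672, of which 30.5 to 34.8% and 18.9 to 21.1% were allele-specific. In astrocytes the progenitor markers Nes and Olig2 fell and the astrocyte markers Gfap and Aqp4 rose, while the other 3 of 5 progenitor and 4 of 6 astrocyte markers did not pass the test, and Mki67 and Top2a, markers of dividing cells, fell. Levels are given as CPM (counts scaled to the library's total reads on genes and by TMM within a preparation), which is not per length, so levels are compared between libraries and not between genes.

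The first comparison asked which collagen genes differ between astrocytes and poly(A) NPCs. Of the 44 genes, 38 passed the filter on low counts, and 11 were higher and 4 lower in astrocytes at an adjusted p under 0.05 (edgeR's quasi-likelihood test across 18192 genes). That is 39.5% of those tested, where 25.5% of all genes tested were called, 13.0% higher and 12.6% lower. The groups of 16 of the 38 did not overlap, as was so for 32.7% of all genes. The median log2 fold change of the 38 genes was 1.60 and that of all genes 0.08. The other 6, Col1a2, Col6a4, Col6a5, Col6a6, Col13a1 and Col24a1, stayed at or below 0.331 CPM in all poly(A) libraries. The count rested on the few NPC clones: it was 9 without F5, 9 without mG2 and 8 without mG6. It was 19 without astrocyte clone 129, with 15 higher. Called without exception under the 12 alternatives were Col4a5, Col5a3, Col7a1, Col18a1, Col26a1 and Col28a1, while each of the other 9 lost the call without at least 1 NPC clone (adjusted p of up to 0.114). Col2a1 and Col14a1 also lost it with sex as a covariate, Col2a1 without C2, G4 or mE6, and Col23a1 without mC3 or mE6. In bulk RNA, more cells of a kind and more RNA per cell cannot be told apart.

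**Figure D1:**
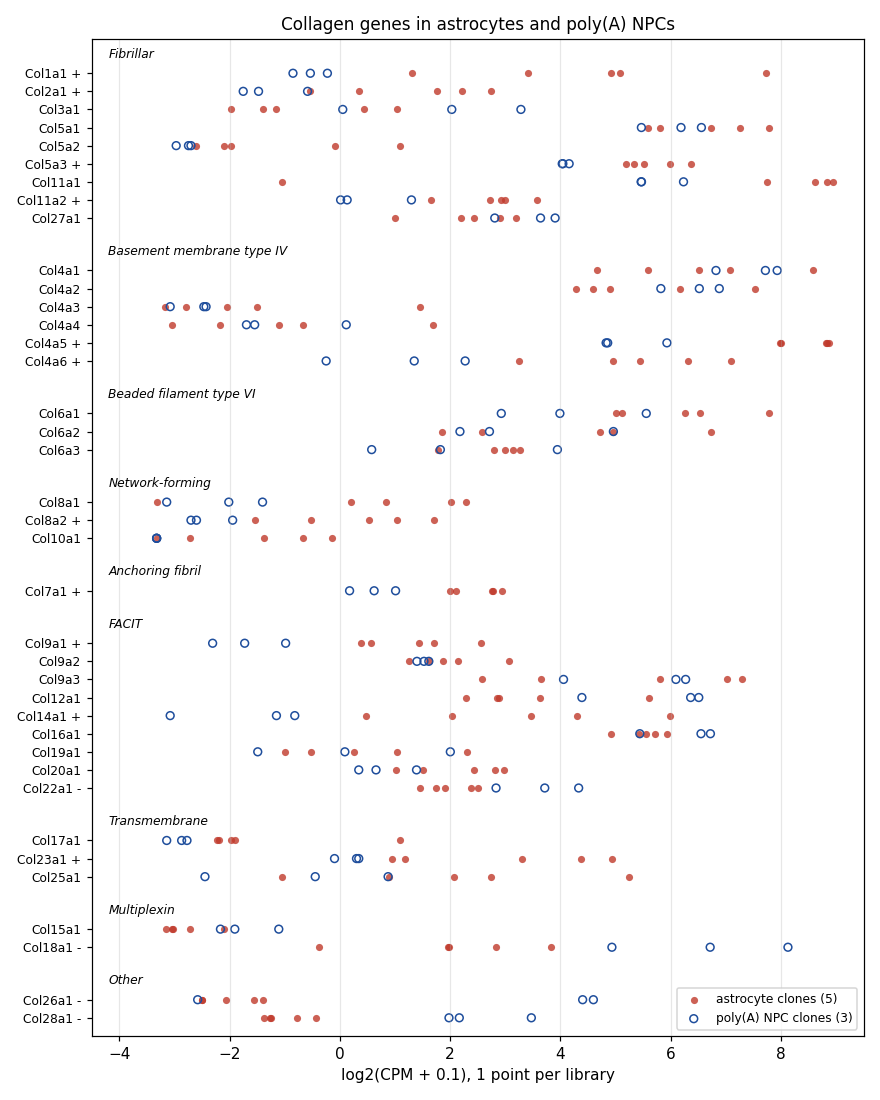
Expression of the 38 tested collagen genes, grouped by family, in 5 astrocyte libraries (filled points) and 3 poly(A) NPC libraries (open points), on the log2(CPM + 0.1) scale. A plus or minus after a symbol marks the 11 genes called higher and the 4 called lower in astrocytes, and Col11a1 shows the single astrocyte library (clone 129) far below the other 4.

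Among the 6 type IV chains, the X-linked Col4a5 and Col4a6, which lie head to head like Col4a1 and Col4a2, rose, and the other 4 did not pass the test. Col4a5, mutated in X-linked Alport syndrome, was at 455, 449.6, 253, 469.7 and 256 CPM in astrocyte clones 129, C2, G4, mC3 and mE6, and at 28.9, 28.4 and 61.0 CPM in NPC clones F5, mG2 and mG6. Every astrocyte clone lay above every NPC clone, and the log2 fold change was 3.26 ± 0.40 (SE, adjusted p = 0.0013, edgeR). Col4a6 was at 137, 79.8, 9.37, 43.2 and 31.1 CPM in the same astrocyte clones and 4.74, 0.743 and 2.45 CPM in the NPC clones, a log2 fold change of 4.5 ± 1.02 (adjusted p = 0.015, edgeR). Its groups did not overlap either, but G4 came within a few CPM of F5.

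Col4a1 was at 383, 136, 25.1, 48.1 and 91.5 CPM in the 5 astrocyte clones and at 113, 244 and 211 CPM in the NPC clones. Its partner Col4a2 was at 184, 71.5, 19.3, 24.0 and 29.9 CPM in astrocytes and 56.6, 91.8 and 118 CPM in NPCs. Both genes had their highest value in astrocyte clone 129 and their lowest in G4, and the range within astrocytes spanned all NPC values, with log2 fold changes of -0.47 ± 0.77 and -0.43 ± 0.73 (adjusted p = 0.69 and 0.70, edgeR). Col4a3 and Col4a4, the chains that join Col4a5 in the glomerulus, were low, at 2.66 and 3.12 CPM in C2 and at or below 0.985 CPM in every other poly(A) library. Neither passed the test (adjusted p = 0.18 and 0.70, edgeR).

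Of the 11 fibrillar genes, 9 were tested, 4 were higher in astrocytes and none was lower. Col1a1, the major chain of type I collagen, was at 10.5, 211, 34.0, 30.1 and 2.39 CPM in astrocytes and 0.455, 0.756 and 0.591 CPM in NPCs. All astrocyte clones lay above all NPC clones, with C2 far above the rest, and the log2 fold change was 6.59 ± 1.58 (adjusted p = 0.019, edgeR). Col1a2, which supplies the other chain of the usual type I trimer, had at most 6 reads in any library. Col1a1 lost the call when any of the 3 NPC clones was left out (adjusted p of up to 0.0749).

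Col5a3, a type V chain, held at 36.3, 40.5, 82.6, 63.4 and 45.8 CPM in astrocytes and 17.8, 16.3 and 16.4 CPM in NPCs, and was 3.19-fold higher in astrocytes (log2 1.67 ± 0.30, adjusted p = 0.0060, edgeR). Col11a2, a type XI chain, was at 3.06 to 11.8 CPM in astrocytes and 0.911 to 2.36 CPM in NPCs (log2 2.36 ± 0.54, adjusted p = 0.016). Col2a1, the main collagen of cartilage, was at 0.590 to 6.62 CPM and 0.197 to 0.567 CPM (log2 3.25 ± 0.89, adjusted p = 0.030). All 3 genes kept their groups apart, although astrocyte clone 129 had a Col2a1 value within 0.1 CPM of NPC clone mG2.

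Col11a1, the partner of Col11a2, had 0.386 CPM in astrocyte clone 129 and 215, 395, 494 and 458 CPM in C2, G4, mC3 and mE6, against 44.1, 75.2 and 44.3 CPM in NPCs. Clone 129 lay below all NPC clones and the other 4 astrocyte clones above them. With all libraries the gene missed the threshold (log2 2.52 ± 1.40, adjusted p = 0.22, edgeR), and without clone 129 it passed (log2 2.84, adjusted p = 0.0021, edgeR). Col5a1 was at 48.3 to 221 CPM and 44.3 to 94.2 CPM in the 2 groups, Col3a1 at 0.155 to 1.96 CPM and 0.938 to 9.65 CPM, and Col27a1 at 1.89 to 9.11 CPM and 6.92 to 14.9 CPM, with overlapping groups (adjusted p = 0.34, 0.075 and 0.15, edgeR). Col5a2 was low, at 0.0643 to 2.04 CPM in astrocytes, and had only 3, 4 and 4 reads in the NPC clones, with groups that did not overlap (adjusted p = 0.060, edgeR).

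Of the 6 type VI genes, Col6a1, Col6a2 and Col6a3, which form the common trimer of beaded filaments, were tested and none was called. Col6a1 was at 93.1, 219, 32.3, 76.8 and 34.6 CPM in astrocytes and 15.8, 7.52 and 47.1 CPM in NPCs. Col6a2 was at 26.2, 107, 5.91, 30.8 and 3.53 CPM and at 4.43, 6.47 and 31.1 CPM. In both genes C2 was the highest astrocyte clone and mG6 the highest NPC clone, and the groups overlapped (adjusted p = 0.11 and 0.43, edgeR). Col6a3 was at 3.33 to 9.5 CPM and 1.39 to 15.3 CPM (adjusted p = 0.93, edgeR).

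In the network-forming and anchoring types, Col8a2 and Col7a1 rose. Col8a2 was at 0.247 to 3.19 CPM in astrocytes and 0.0540 to 0.160 CPM in NPCs (log2 3.96 ± 0.95, adjusted p = 0.018, edgeR), and Col7a1, the collagen of anchoring fibrils in skin, at 3.88 to 7.61 CPM and 1.03 to 1.92 CPM (log2 1.99 ± 0.39, adjusted p = 0.0083, edgeR). Neither gene's groups overlapped. Col8a1, which can join Col8a2, had 0 reads in clone 129, 1.05 to 4.76 CPM in the other 4 astrocyte clones and 0.0135 to 0.279 CPM in NPCs (adjusted p = 0.12, edgeR). Col10a1, known from growth plate cartilage, had 61 reads at most in an astrocyte library (0.807 CPM in C2), 0 in clone 129 and 0 in all 3 NPC libraries (adjusted p = 0.056, edgeR).

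The FACIT group moved both ways, with 2 of its 9 genes higher, 1 lower and 6 not called. Col14a1 was at 1.30, 19.7, 63.6, 10.9 and 4 CPM in astrocytes and 0.0186, 0.351 and 0.468 CPM in NPCs (log2 6.16 ± 1.63, adjusted p = 0.026, edgeR). Col9a1, a type IX chain, was at 1.21 to 5.77 CPM and 0.102 to 0.406 CPM (log2 3.57 ± 0.75, adjusted p = 0.011), while Col22a1 was lower in astrocytes, at 2.64 to 5.59 CPM against 7.03 to 20.1 CPM (log2 -1.73 ± 0.39, adjusted p = 0.015). Each of these 3 genes kept its groups apart. The partners of Col9a1 did not pass: Col9a3 was at 5.84, 156, 129, 55.9 and 12.4 CPM in astrocytes and 68.3, 16.6 and 77.3 CPM in NPCs, and Col9a2 at 2.28 to 8.25 CPM and 2.54 to 2.96 CPM (adjusted p = 0.80 and 0.33, edgeR).

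Col12a1 was at 12.3, 48.4, 7.13, 4.76 and 7.33 CPM in astrocytes and 20.9, 82.3 and 91.2 CPM in NPCs. It missed the threshold with all clones (adjusted p = 0.096, edgeR) and passed without C2, the highest astrocyte clone (log2 -3.07, adjusted p = 0.0087, edgeR). Col16a1 was at 30.0 to 61.3 CPM and 43.4 to 106 CPM, Col19a1 at 0.402 to 4.87 CPM and 0.257 to 3.92 CPM, and Col20a1 at 1.92 to 7.78 CPM and 1.17 to 2.52 CPM (adjusted p = 0.098, 0.97 and 0.076, edgeR).

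The genes lower in astrocytes included both members without a family, and the source of endostatin. Col18a1, a basement membrane collagen whose end fragment is endostatin, was at 7.04, 14.2, 0.674, 3.85 and 3.81 CPM in astrocytes and 30.5, 105 and 280.0 CPM in NPCs (log2 -4.55 ± 0.94, adjusted p = 0.010, edgeR). The groups did not overlap, and the NPC clones themselves spread widely. Col28a1 was at 0.285 to 0.642 CPM in astrocytes and 4.39, 3.85 and 11 CPM in NPCs (log2 -3.96 ± 0.48, adjusted p = 0.0012, edgeR). Col26a1 was called lower (log2 -6.53 ± 1.33, adjusted p = 0.010, edgeR), but its groups overlapped: it was at 24.2 and 21.1 CPM in F5 and mG6 and at 0.0675 CPM in mG2, below the 0.0775 to 0.279 CPM of the astrocytes. Col15a1, the relative of Col18a1, stayed at or below 0.365 CPM and was not called (adjusted p = 0.060, edgeR).

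Of the transmembrane collagens, Col23a1 rose, from 0.836, 1.13 and 1.17 CPM in NPCs to 30.5, 1.84, 2.16, 20.6 and 9.80 CPM in astrocytes (log2 3.63 ± 1.03, adjusted p = 0.034, edgeR). Col25a1, known from nerve and muscle contact, was at 0.386, 6.60, 37.7, 4.09 and 1.75 CPM in astrocytes and 0.0836, 0.635 and 1.74 CPM in NPCs (adjusted p = 0.13, edgeR), and Col17a1, a hemidesmosome protein, at 0.114 to 2.04 CPM and 0.0135 to 0.0465 CPM (adjusted p = 0.065, edgeR). The groups of Col17a1 did not overlap, and the highest astrocyte clone was G4 for Col25a1 and C2 for Col17a1.

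Genes that make, bind or break down collagen were counted from lists of their own. Over all 18192 genes tested, 13.0% were called higher and 12.6% lower, and these shares also apply to the marker lists that follow. The share called higher among receptors, and both shares among basement membrane partners, were near these. Of 30 tested genes for synthesis, folding and processing, 5 rose and 6 fell, and their median log2 fold change was 0.13. The largest rises were those of P4ha2, a prolyl hydroxylase subunit (log2 5.57), Colgalt2, a collagen galactosyltransferase (3.12), and Loxl3, a lysyl oxidase (2.51). The largest falls were those of Tll2, a tolloid-like proteinase (log2 -2.89), and of the procollagen proteinase enhancers Pcolce2 (-2.60) and Pcolce (-1.45). Tll2 was low throughout, at 0.0214 to 0.190 CPM in astrocytes and 0.353 to 1.98 CPM in NPCs. Of 7 tested collagen receptors only Itga10 rose (log2 4.71). Of 8 tested genes for breakdown, Mmp9 and the inhibitor Timp3 rose (log2 4.12 and 2.16), and none was called lower. Mmp2, named here after its values were seen, was at 0.890 to 61.3 CPM in astrocytes and 181 to 332 CPM in NPCs, without overlap, and just missed the threshold (log2 -4.09, adjusted p = 0.054, edgeR). Of 16 basement membrane partners, Agrn and Lamb2 rose (log2 2.16 and 1.78), and the laminin chains Lama4 and Lama2 fell (log2 -8.30 and -2.01). Lama4 was at 96.2 CPM in mG6 and 14.1 CPM in F5, the other poly(A) libraries being at or below 0.230 CPM.

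Markers of other cells that make collagen were read beside these results. The 11 fibroblast or mesenchyme markers summed to 30.4 to 153 CPM in astrocytes and 59.1 to 169 CPM in poly(A) NPCs, with 1 of 10 tested higher (Tagln) and 1 lower (Tbx18). Prrx1 was at 15 to 123 CPM in astrocytes and 5.90 to 45.1 CPM in NPCs, Twist1 reached 34.9 CPM (C2), Tbx18 97.8 CPM (mG6) and Acta2 7.41 CPM (C2). Lum reached 5.22 CPM, Dcn 2.08, Pdgfrb 2.14, Postn 1.00 and Dpt 0.851 CPM in any poly(A) library, and Col1a2 was near 0. The 4 endothelial markers summed to 19 to 105 CPM in astrocytes and 4.06 to 6.84 CPM in NPCs, with Kdr and Pecam1 higher and Tek lower in astrocytes. Kdr made up most of the sum in astrocytes (17.9 to 104 CPM) and Tek most of it in F5 and mG6 (5.90 and 2.73 CPM), while Cdh5 stayed at or below 0.271 CPM. C2, the clone with the highest Col1a1, Col6a1, Col6a2 and Col12a1 among astrocytes, also had the highest Kdr. It did not have the highest Pecam1 (1.72 CPM in mC3, 1.02 in C2) or Tek (0.847 CPM in clone 129, 0.145 in C2). G4, with the next highest Kdr (72.2 CPM), had the lowest Col6a1 among astrocytes (32.3 CPM). The part of such cells in the differences was not tested.

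The Ch clones are the only ones with replicate libraries, and were used to ask which collagen genes differ between NPC clones. Of 28 collagen genes that passed the filter, 12 differed among the 4 clones at an adjusted p under 0.05 (edgeR, 3 coefficients tested together), or 42.9%, where 16.6% of all 17095 genes tested did. The count was 7 without the second Ch7 library, and 7 to 11 as each library was left out. Both libraries came from the same clone, so the spread behind these p-values may be technical.

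Col11a1 was at 3.68 and 3.26 CPM in Ch8 and at 13.7 to 19 CPM in the other clones, 5.32-fold lower in Ch8 than in Ch5 (adjusted p = 5.4e-06, edgeR). Col26a1 was at 11.7 and 15.1 CPM in Ch8 and at 2.03 to 3.89 CPM elsewhere (adjusted p = 4.4e-05). Col9a3 was at 14.1 and 14.8 CPM in Ch8, 9.73 and 12.2 in Ch5, 7.56 and 6.65 in Ch3 and 3.29 and 2.74 CPM in Ch7 (adjusted p = 5.8e-05). For Col11a1 and Col26a1, Ch8 stood apart from the other 3 clones, and for Col9a3 no library of a clone overlapped with another clone.

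The type IV pairs differed in which clone was highest. Col4a6 was at 11.7 and 10.7 CPM in Ch7 and 3.15 to 4.70 CPM in the others (adjusted p = 5.3e-04), and Col4a5 at 69.6 and 64.7 CPM in Ch7 and 36.7 and 31.6 CPM in Ch8 (adjusted p = 0.0011, edgeR). Col4a1 was highest in Ch3, at 49.7 and 53.7 CPM, and at 29.3 to 44.0 CPM in the others (adjusted p = 0.0026, edgeR). Its partner Col4a2 was at 18.0 to 25.7 CPM and missed the threshold (adjusted p = 0.10, edgeR), and the difference between the partners was not tested.

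The other 6 genes called had adjusted p-values from 0.018 (Col5a3) to 0.041 (Col11a2). Col5a3 and Col18a1 were 1.74- and 1.56-fold apart between their highest and lowest clones, Col16a1 1.41-fold, Col7a1 2.28-fold and Col11a2 2.51-fold, and Col3a1 was at or below 0.652 CPM throughout. Except for Col5a3, each of these lost the call without at least 3 of the 8 libraries in turn, and Col5a3 lost it without the second Ch7 library (adjusted p = 0.077, edgeR).

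**Figure D2:**
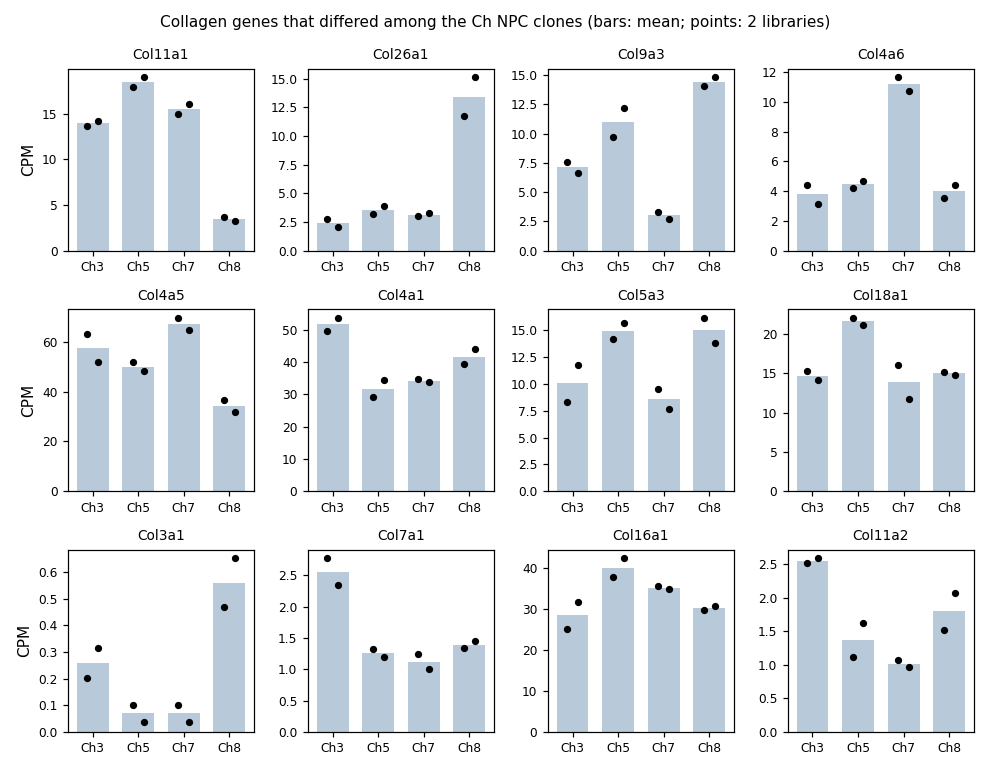
Expression (CPM, linear axis) of the 12 collagen genes that differed among the NPC clones Ch3, Ch5, Ch7 and Ch8, with bars for the mean of a clone and points for its 2 libraries. Ch8 stood apart for Col11a1 and Col26a1, and Ch7 for Col4a6.

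Allelic expression was read as the share of allele-specific reads that came from the Cast allele, given where a gene had at least 20 such reads in a clone. At least 1 clone gave a value for 37 of the 44 genes, and 15 had a value in all 12 clones. For the 35 autosomal genes, 282 values were available. A value under 15% or over 85% is called monoallelic here. Of the 282 values, 47 (16.7%) were monoallelic, 27 from the Cast and 20 from the 129 allele, where 5.59% of the 135541 values over all autosomal genes were. At least 1 such value was found in 18 of the 35 genes (51.4%, where 23.8% of all autosomal genes had one). Leaving out values from 20 Mb windows whose median gene was outside 40 to 60% in that clone, 42 of 269 collagen values (15.6%) and 4.24% of all values were monoallelic.

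The depth behind these values differed: a collagen value rested on a median of 236 allele-specific reads and a value of all genes on 674, and monoallelic values on 140 and 157. With a minimum of 50 reads, 37 of 234 collagen values (15.8%) and 4.55% of all values were monoallelic. The share was 31 of 142 in astrocytes (21.8%, all genes 5.62%) and 16 of 140 in NPCs (11.4%, all genes 5.57%). With limits of 10 and 90% it was 18 of 142 in astrocytes (12.7%, all genes 4.25%) but 5 of 140 in NPCs (3.57%, all genes 4.65%), so that the NPC share went from above to below that of all genes. The Wilson intervals of 24 of the 47 monoallelic values reached past the limit of 15 or 85%, 8 of them those of Col20a1. The SD of percent Cast over the 5 astrocyte clones had a median of 12.3 points in the 24 collagen genes with a value in each, and of 3.49 points over 10501 genes. Over the 7 NPC clones it was 6.41 points in 14 collagen genes and 3.68 over 10048 genes. These shares and medians are descriptions without a test.

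**Figure D3:**
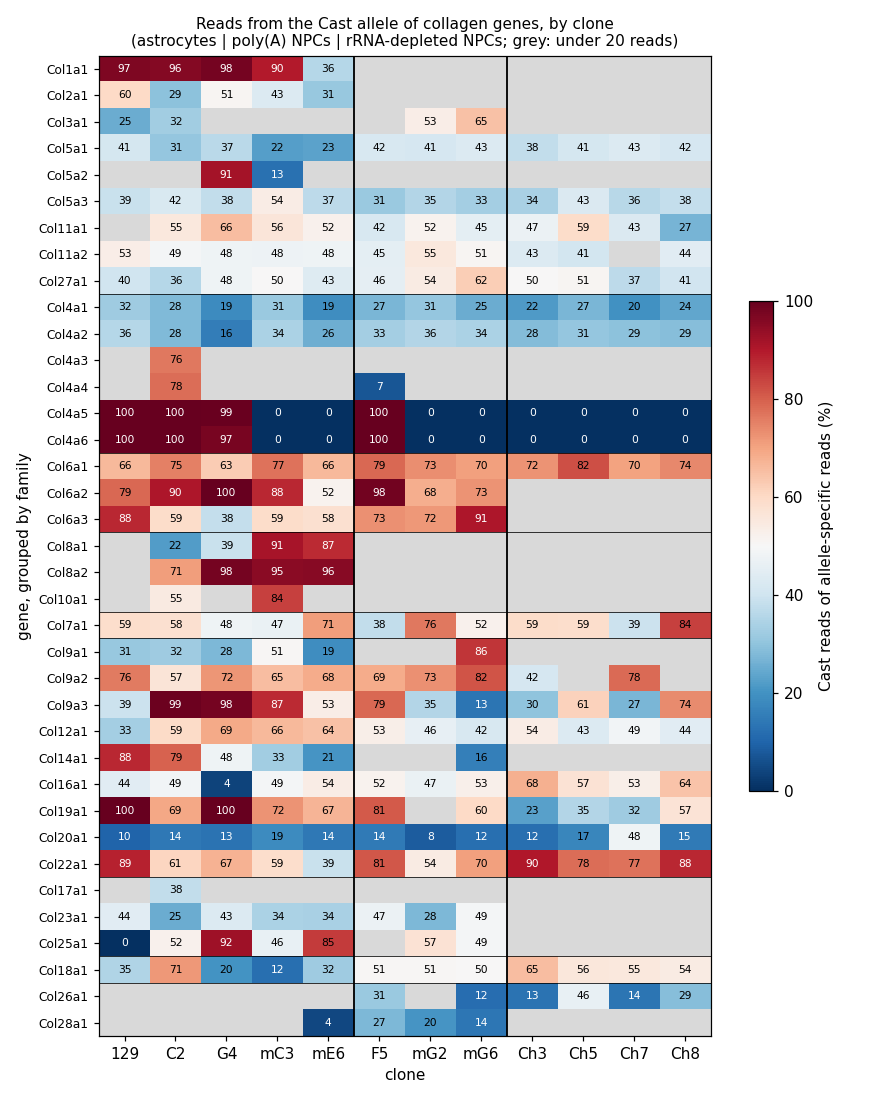
Percent of allele-specific reads from the Cast allele for 37 collagen genes (rows, grouped by family) in 12 clones (columns), from blue (129 allele) through white to red (Cast allele), grey where there were under 20 reads. White digits mark monoallelic values, the 2 X-linked genes Col4a5 and Col4a6 follow the sex of the clone, and Col20a1 is blue in all clones but Ch7.

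Values from opposite alleles were found in 3 genes (8.57% of the 35, where 2.14% of all autosomal genes had them): Col9a3, Col25a1 and Col5a2. Within astrocytes 2 of 34 had them (all genes 0.913%), Col25a1 and Col5a2, and within NPCs 0 of 27 (all genes 0.778%). With a minimum of 50 reads it was Col9a3 alone. Col9a3 gave 39.4, 99.0, 97.8, 87.2 and 53.3% Cast in astrocyte clones 129, C2, G4, mC3 and mE6, 78.6, 35.3 and 13.4% in NPC clones F5, mG2 and mG6, and 29.9, 61.3, 27.1 and 73.5% in Ch3, Ch5, Ch7 and Ch8. The extremes rested on many reads, 4754 in C2 (95% Wilson interval 98.7 to 99.3%, counting error only) and 2281 in mG6 (12 to 14.8%). So the gene was nearly all Cast in some clones, mostly 129 in mG6, and between in the rest. Its surroundings on chromosome 2 were balanced, with a median gene at 49.4% in C2 and 48.2% in mG6.

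In the Ch clones the allelic ratio of Col9a3 could be tested against replicate libraries. It was 25.6 and 32.8% in Ch3, 52.7 and 68.5% in Ch5, 19 and 33.3% in Ch7 and 71.3 and 75.7% in Ch8. Ch5 and Ch8 lay above Ch3 and Ch7 in every library, and the clones differed (adjusted p = 5.7e-09, edgeR with an allele by clone term). Of 11 collagen genes in this test, 3 were called, or 27.3%, where 9.23% of all 9365 genes were. Col16a1 was at 50.7 to 57.6% in Ch5 and Ch7 and at 62.3 to 68.0% in Ch3 and Ch8 (adjusted p = 0.0015, edgeR), and lost the call without the first Ch7 library (adjusted p = 0.071, edgeR). Col11a1 was at 27.6 and 25.9% in Ch8, the clone with its lowest level, and at 36.4 to 62.4% elsewhere (adjusted p = 0.0074, edgeR), on 29 and 27 reads in Ch8. The 2 libraries of Ch3 were themselves far apart, at 61.2 and 36.4% (85 and 110 reads). Col11a1 lost the call without the first Ch5 or either Ch8 library (adjusted p of up to 0.19, edgeR).

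Col25a1, on chromosome 3, gave 0% Cast in clone 129 (0 of 22 reads, Wilson interval 0 to 14.9%), 92.5% in G4 (1871 reads), 84.9% in mE6, and 52.0 and 46.4% in C2 and mC3. Clone 129, with the lowest level of the gene among astrocytes, and G4, with the highest, were thus at opposite ends. In G4 the median gene of the window was itself at 66.9%. Col5a2 had enough reads in 2 clones only, with 91.4% Cast in G4 (35 reads) and 12.8% in mC3 (86 reads).

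Col1a1 was nearly all Cast in 4 astrocyte clones, at 96.6, 95.7, 97.7 and 89.8% in 129, C2, G4 and mC3, and at 35.8% in mE6, the clone with its lowest level (53 reads, Wilson interval 24.3 to 49.3%, those of the others starting at 87.2% or above). It lies on chromosome 11 (94936224 to 94953042), where the median gene of its window was at 48.6 to 51.2% in those 4 clones. In NPCs it had at most 14 reads with an allele. Col8a2 gave 71.1, 97.7, 95.2 and 95.6% in C2, G4, mC3 and mE6, and Col8a1 22.2, 39.0, 91.2 and 87.4%. The type VIII partners thus both leaned to Cast in mC3 and mE6, and to opposite sides in C2. In G4, Col8a1 rested on 41 reads and lay within 35 to 65%, the range taken as biallelic. Col8a2 in mC3 rested on 21 reads.

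In G4, the window of Col8a2 and Col16a1 on chromosome 4 had a median gene at 10.0% Cast. Col16a1 followed it, at 3.81% (1758 reads), where it was at 44.3 to 67.9% in the other 11 clones. Col8a2 went the other way, at 97.7% Cast (84 of 86 reads). In clone 129, the chromosome 1 windows of Col19a1 and Col6a3 had median genes at 34.6 and 33.0% Cast, while these genes were at 100% (56 reads) and 87.9% (140 reads). Col8a2, Col19a1 and Col6a3 thus lay away from their surroundings, towards Cast. In the 4 Ch clones the chromosome 1 window of Col19a1 was likewise at 32.4 to 33.3%, and Col19a1 itself at 22.9 to 56.9%.

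The remaining genes had monoallelic values in some of their clones only. Col6a2 was above 50% in all 8 clones with a value, Col6a3 in 7 of 8 and Col22a1 in 11 of 12. Below 50% were Col26a1 in all 6 clones with a value (11.8 to 46.2%) and Col28a1 in all 4 (4.35 to 27.4%). Col9a1, Col14a1, Col18a1, Col19a1 and Col4a4 had values on both sides of 50%. Col6a2 was at 90.4, 100 and 87.6% in C2, G4 and mC3 and 98.3% in F5, but at 51.6% in mE6 and 68.0 to 78.8% in 129, mG2 and mG6. Col6a3 was at 90.6% in mG6, Col22a1 at 88.6% in clone 129 and 90.2 and 87.7% in Ch3 and Ch8, and Col14a1 at 87.8% in clone 129 but 16.0 to 79.4% elsewhere. Col19a1 was also at 100% in G4 (25 reads), and Col9a1 at 85.7% in mG6 (21 reads). Towards 129, Col26a1 was at 11.8, 13.2 and 13.6% in mG6, Ch3 and Ch7, Col28a1 at 13.7% in mG6 and 4.35% in mE6, Col18a1 at 12.4% in mC3, and Col4a4 at 7.41% in F5. In this group the Wilson intervals of Col9a1, Col14a1, Col18a1, Col22a1, Col28a1 and Col4a4, and those of Col26a1 in Ch3 and Ch7, cross the limits, and Col9a1 and Col28a1 in mE6 rest on only 21 and 23 reads.

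Whether the clones as a set favoured an allele was asked with a test over clones. In astrocytes, 24 autosomal collagen genes had 20 reads in all 5 clones and 8 were called, or 33.3%, where 31.1% of all 10501 genes were, 12.2% towards Cast and 18.8% towards 129. In the 7 NPC clones, 14 were tested and 7 called, or 50%, where 40.5% of all 10048 genes were, 15.1% towards Cast and 25.4% towards 129. The collagen share in astrocytes was near the background. Col4a1, Col4a2, Col5a1 and Col20a1 were called towards 129 and Col6a1 towards Cast in both sets, which share no clone.

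Col20a1, a FACIT collagen, was at 10.0, 14.3, 12.9, 18.6 and 14.1% Cast in astrocytes, 14.5, 8.33 and 12.2% in poly(A) NPCs, and 12.1, 17.4, 47.8 and 14.7% in Ch3, Ch5, Ch7 and Ch8. All 12 clones were below 50%, and Ch7 (23 reads, as in Ch5) was the only one above 18.6%. The log2 ratio of Cast to 129 reads was -2.66 ± 0.16 in astrocytes and -2.37 ± 0.38 in NPCs (adjusted p = 8.7e-04 and 0.0024, edgeR). Col6a1 was at 62.7 to 77.2% in astrocytes and 70.0 to 82.1% in NPCs, above 50% in all 12 clones (log2 1.21 ± 0.18 and 1.54 ± 0.12, adjusted p = 0.0073 and 1.3e-04, edgeR).

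Col5a1 was at 41.1, 30.6, 36.7, 22.3 and 23.1% in astrocytes and within 37.6 to 43.1% in NPCs, below 50% in all 12 clones (log2 -1.21 ± 0.22 and -0.50 ± 0.05, adjusted p = 0.015 and 2.2e-04, edgeR). In astrocytes it missed the threshold without C2 (adjusted p = 0.052, edgeR). Col5a3 was called towards 129 in NPCs, at 31.4 to 42.9% (log2 -0.85 ± 0.09, adjusted p = 4.1e-04, edgeR), and not in astrocytes, at 37.0 to 53.6% (adjusted p = 0.075, edgeR). Col22a1 was called towards Cast in NPCs, at 54.0 to 90.2% (log2 1.78 ± 0.34, adjusted p = 0.0052, edgeR), and not in astrocytes, at 38.8 to 88.6% (adjusted p = 0.29, edgeR), and for neither gene was the difference between the sets tested. With poly(A) NPC clones alone Col22a1 lost the call (adjusted p = 0.15, edgeR).

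In astrocytes alone, Col9a2 was called towards Cast, at 56.6 to 75.8% (log2 1.04 ± 0.20, adjusted p = 0.016, edgeR), and Col23a1 towards 129, at 25.0 to 44.4% (log2 -0.82 ± 0.20, adjusted p = 0.030, edgeR). Neither had enough reads for the test in NPCs. In G4, Col9a2 was at 71.9% although it lies in the chromosome 4 window at 10.0%. Col9a2 lost the call without mC3 or mE6, and Col23a1 without C2, mC3 or mE6 (adjusted p of up to 0.059 and 0.098, edgeR). Col1a1 just passed (log2 3.61 ± 1.02, adjusted p = 0.048, edgeR), and lost the call without any of the 4 clones in which Cast prevailed (adjusted p of up to 0.15).

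Head-to-head and neighbouring genes were then compared within clones. Col4a1 gave 32.3, 28.0, 18.7, 31.4 and 18.9% Cast in astrocyte clones 129, C2, G4, mC3 and mE6, 27.1, 30.8 and 25.2% in F5, mG2 and mG6, and 21.6, 27.0, 19.7 and 24.2% in Ch3, Ch5, Ch7 and Ch8. Col4a2 gave 35.9, 27.7, 15.6, 34.0 and 25.6%, 33.2, 35.5 and 34.3%, and 28.5, 30.8, 29.4 and 28.6% in the same clones. Both were below 37% in all 12 clones, and no clone put them on opposite sides of 50%. As a set, the log2 ratio of Cast to 129 was -1.55 ± 0.21 and -1.41 ± 0.25 in astrocytes (adjusted p = 0.0057 and 0.013) and -1.59 ± 0.10 and -1.12 ± 0.07 in NPCs (adjusted p = 5.8e-05 and 5.0e-05, edgeR).

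The pair was not identical. Col4a1 minus Col4a2 was between -9.72 and 3.15 points, with a median of -4.57, and Col4a1 had the lower Cast share in 10 of 12 clones. The 95% Wilson intervals of both genes lay apart in 7 clones, those of 129, mE6, F5, mG2, mG6, Ch3 and Ch7. G4 had the lowest Cast share of Col4a2 and of Col4a1, and also the lowest level of both genes among the poly(A) libraries. Clone 129 had the highest level of both genes among these libraries and also the highest Cast share of both (32.3 and 35.9%). Level and share did not go together in every clone, and their relation was not tested. mC3 had the next lowest level of both genes (48.1 and 24.0 CPM) at 31.4 and 34.0% Cast. In mE6, Col4a1 was at 18.9% Cast, close to G4, with 91.5 CPM.

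Col4a5 and Col4a6, on the X chromosome with starts 1343 bp apart, gave at least 99.2 and 97.4% Cast in the 4 female clones 129, C2, G4 and F5, and at most 0.165 and 0.249% in the 8 male clones. Male cells have their X from the 129 mother, and a female clone keeps a single X active. In the female clones the median X gene gave 98.9 to 100% Cast, so the Cast X was the active one in all 4. The partners differed by at most 1.86 points, in G4.

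Other neighbours were read likewise. Col6a1 and Col6a2, on chromosome 10 with 85162 bp between them and on the same strand, differed by up to 37.3 points (62.7 and 100% in G4), and their intervals were apart in 6 of the 8 clones with both. Both genes were above 50% in all 8, and in mG6 and mG2 they differed by 2.20 and 5.32 points, less than Col4a1 and Col4a2 did at most. In mE6 and mG2 the order turned, with Col6a1 at 66.4 and 73.3% and Col6a2 at 51.6 and 68.0%. Col19a1 and Col9a1, with 4945 bp between their ends on chromosome 1, differed by up to 72.3 points (100 and 27.7% in G4) and were apart in 4 of 6 clones. Col4a3 and Col4a4, whose gene bodies overlap at the start of Col4a4 on chromosome 1, had both a value in C2 only, at 76.5 and 77.9% with overlapping intervals. No window was available for Col4a3, so whether this pair also lies head to head was not read here.

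**Figure D4:**
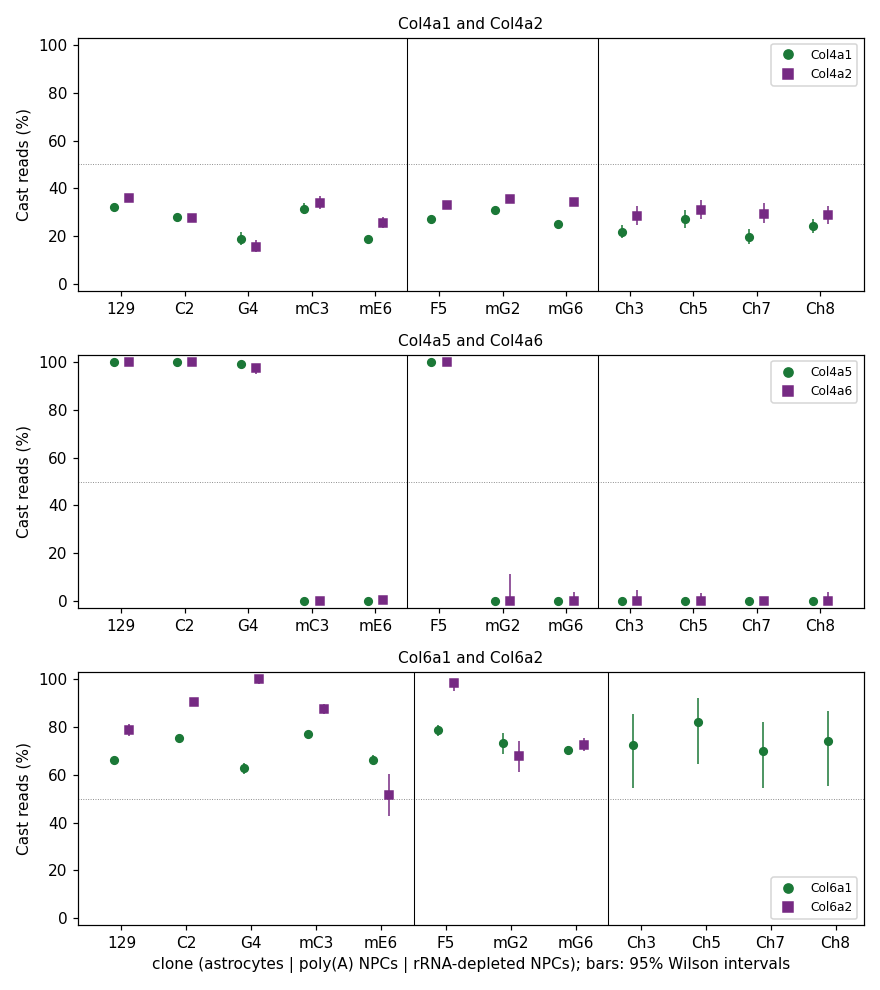
Percent of reads from the Cast allele in 12 clones for the head-to-head pairs Col4a1 with Col4a2 and Col4a5 with Col4a6, and for the neighbours Col6a1 and Col6a2, with 95% Wilson intervals (counting error only) and a dotted line at 50%. In all 3 pairs both members lay on the same side of 50% in every clone with values. Col4a5 and Col4a6 follow the single active X of each clone, and Col6a2 in mE6 was close to 50% (51.6%, 124 reads). The widest gap was in G4, with Col6a1 at 62.7% and Col6a2 at 100%.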

How the data were processed

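RNA-seq of 16 libraries from 12 clones was analysed. Per the labels and the study's methods, the authors masked strain SNPs in the mouse genome (GRCm38/mm10), aligned reads with TopHat2 (2.1.0) and Bowtie2, split them by allele with SNPsplit and counted them per gene by strand with featureCounts (1.5.1). The deposited counts (all, Cast and 129 reads) are not normalized. The deposited Cast fraction, given from 10 reads on, matched the counts and was otherwise not used. The annotation version is not given in the sources used here. Reads shared by similar or overlapping genes are not separated beyond that counting.

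The genes, lists and families were chosen with earlier results of these data known. The genes named follow a rule: every member that passed the filter, by family; in allelic results, members with a monoallelic value, a call, an X-linked position or a pair partner; and the 3 called genes of each list with the largest change in each direction. All-read counts were tested with edgeR (4.0.16, TMM, filterByExpr, quasi-likelihood) over all genes, with Benjamini-Hochberg adjustment and a threshold of 0.05. Allelic tests took Cast and 129 counts as 2 columns with the clone or library as a block, for autosomal genes with 20 allele-specific reads in every clone or library. For ratios, both libraries of each Ch clone were added up. They were not identical (chi-square per degree of freedom 11.6 to 67.4). Samples were grouped by their labels. Clones of a group are separate lines, while the 2 Ch libraries of a clone may be technical repeats. Intervals are 95% Wilson and cover counting error only. Tested on simulated data, the astrocyte comparison recovered 43 of 187 genes changed by a log2 of 2 with 1 false call among 18323 genes, and the Ch comparison 192 of 196 with 6 among 16824. R 4.3.3, DESeq2 1.42.0, Python 3.11.15, pandas 2.3.3, scipy 1.17.1 and matplotlib 3.10.9 were used. Symbols were assigned by Ensembl identifier from a list of gene names, and positions and promoter windows are from RefSeq tables on GRCm38.p6. Of 44 members, 43 matched by symbol and Col26a1 by an older one.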

Additional observations from a re-analysis of the deposited data

Results flagged for a closer look

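A sample is named here where its gap to the nearest other sample of its group was a large part of the group's range (Dixon's 95% limit). For independent and normally distributed values, chance gives such a gap in about 1 of 20 groups. That is about 1.9 of the 38 collagen genes for astrocyte CPM, where 7 were found. The CPM were taken without a log, and the genes share the same libraries, so the counts do not measure an excess over chance. For percent Cast, 5 of 27 genes were found in astrocytes and 3 of 18 in NPCs, where chance gives about 1.35 and 0.9.

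Clone C2 was the high sample of 6 of the 7 genes: Col1a1 at 211 CPM, Col6a2 at 107, Col12a1 at 48.4, Col4a4 at 3.12, Col4a3 at 2.66 and Col17a1 at 2.04 CPM. Clone G4 was the high sample of Col25a1, at 37.7 CPM. The 6 values come from 1 library.

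For percent Cast in astrocytes, Col1a1 was low in mE6 (35.8%), Col12a1 low and Col11a2 high in clone 129 (33.0 and 53.5%), Col8a2 low in C2 (71.1%) and Col16a1 low in G4 (3.81%). In NPCs, Col20a1 was high in Ch7 (47.8%, 23 reads), Col18a1 high in Ch3 (65.2%) and Col5a1 low in Ch3 (37.6%).

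Col3a1 leaned to 129 in the 2 astrocyte clones with 20 reads and to Cast in the 2 NPC clones, with mean shares of 28.8 and 58.8% Cast, a difference that was not tested. In clone 129, 1 of these astrocyte clones, Col3a1 was at 25.0% and the median gene of its chromosome 1 window at 32.6%.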

How the results depend on the processing

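With DESeq2, 23 collagen genes were called between astrocytes and NPCs, 17 of them higher. As each library was left out, the count was 8 to 19, with 4 to 15 higher and 3 to 7 lower. Over all genes the count was 6280 with DESeq2 and 2269 to 4849 as each library was left out. Among Ch clones it was 7 to 11 collagen genes and 1509 to 3244 of all genes as each library was left out, 4361 of all genes without a filter. In the allelic tests, it was 5 to 9 in astrocytes as each clone was left out, with 1 to 4 towards Cast and 3 to 6 towards 129 (all genes 1976 to 3040), and 7 to 8 in NPCs. With a minimum of 50 reads, 1 gene was called towards Cast in NPCs and 1 among Ch clones, and leaving out a library gave 2 to 4 among Ch clones. With poly(A) NPC clones alone, 2189 of all genes were called. Under limits of 10 and 90%, 23 values were monoallelic (8.16%, all genes 4.48%), and in NPCs 3.57% (all genes 4.65%). Signs turned for genes that were not called: with sex as a covariate Col19a1 was at -0.010 and Col9a3 at -0.067 (log2, astrocytes against NPCs), and leaving out a library gave -0.78 to 1.47 for Col19a1, -0.94 to 1.87 for Col4a4, -0.38 to 1.54 for Col6a3 and -0.12 to 0.71 for Col9a3. In the allelic tests, Col14a1 was at -0.31 to 0.75 in astrocytes as each clone was left out, and in NPCs Col27a1 was at -0.21 to 0.034 (0.22 with poly(A) NPC clones alone) and Col9a3 at -0.69 to 0.14. The causes were not tested. Whether the replicate numbers of the Ch libraries pair them was not settled. The correlation of their deviations differed in sign, from -0.18 to 0.28 over 6 pairs of clones. With the replicate number as a block, 14 collagen genes were called in place of 12 by level (all genes 3391 in place of 2834). By allele, 3 were called as before (all genes 854 in place of 864). Leaving out genes in unbalanced 20 Mb windows for the NPC clones was chosen after seeing the data and gave 7 calls. At these depths, 7 collagen genes had too few reads for any allelic value.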
